A study of Mus musculus with 6 samples.

Results

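The genes described here are 10 genes used to recognise the resident alveolar macrophage: Ear1, Ear2, Siglecf, Marco, Pparg, Mrc1, Fabp1, Krt79, Abcg1 and Atp6v0d2. They were taken by gene symbol from the deposited expression tables, which hold 23183 genes, and all 10 have a value in all 6 libraries. RNA sequencing was done on total RNA of lung from mice of C57BL/6 background, 3 libraries after lipopolysaccharide (LPS, an outer membrane component of Gram-negative bacteria) was instilled into the trachea and 3 after saline was given by the same route. The sources used here do not state dose, time after instillation, age, sex or whether each library came from its own animal. The p-values therefore measure only how far these samples scatter, and that scatter may be technical. The sample titles call all 6 libraries WT, while the genotype field reads LCN2-/- for LPS 1 and LPS 2, LCN4-/- for LPS 3 and wild type for saline. Lcn2 RNA was high in each library labelled LPS, at 13.60, 13.29 and 13.82, against 8.20, 11.28 and 10.11 in saline, which goes against a loss of Lcn2 RNA in the libraries labelled LCN2-/-. Lcn4 was at 0.14 to 0.57 in LPS and 0.26 to 0.70 in saline. If the genotype field were right, genotype and treatment could not be told apart in any difference below, so LPS here means the libraries labelled LPS.

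Values are the deposited log2 values, read as log2(expression + 1), and each difference is LPS minus saline on that scale, which understates the change of genes with low values. Tests are limma with Benjamini-Hochberg adjustment over the 13116 genes tested, at a threshold of 0.05. Values before the log summed to between 854330 and 1004144 per LPS library and between 543167 and 632723 per saline library. The LPS tables list 6097, 6223 and 5117 genes at 0, while each saline table lists exactly 3869. Values above 0 but under 0.01 number 24, 11 and 13 in LPS and 1505, 1936 and 1905 in saline, so the tables write very low values differently in the groups. LPS 3 has no value for 4484 genes, which also lowers its count of zeros, and none of them is among the 10 described here.

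Alveolar macrophages live on the airspace side of the alveolus, where they clear particles, microbes and spent surfactant. They settle around birth, when granulocyte-macrophage colony-stimulating factor (GM-CSF, encoded by Csf2) and TGF-beta induce the nuclear receptor PPAR-gamma, which in turn drives the genes for handling surfactant lipid that set these cells apart from other macrophages. In acute lung injury, neutrophils and monocytes enter the airspace, and monocyte-derived macrophages at first lack several genes of the resident cells. In bulk lung RNA, fewer cells of a type and less RNA per cell cannot be told apart.

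Of the 10 genes, 7 were lower in LPS at the threshold, 0 were higher and 3 did not pass. Among all genes tested, 24.3% were called lower, 25.7% higher and 50.1% in either direction. The genes that fell were Fabp1, Ear1, Siglecf, Atp6v0d2, Mrc1, Krt79 and Pparg, by 3.26, 2.14, 1.63, 1.24, 1.19, 1.07 and 0.51. The 3 that did not pass were Ear2 (-0.35), Marco (-0.29) and Abcg1 (0.05). In 6 of the 10 every LPS value lay below every saline value, as it did in 30.7% of all genes tested, and in 0 every LPS value lay above, as in 32.7% of all genes. The median difference was -1.13 over the 10 genes and 0.02 over all genes tested. With no filter on low values these medians were -1.13 and -0.02. All 10 passed the filter on low values, but Siglecf and Fabp1 passed only through their saline values and so had to be lower. Both are counted in the median of -1.13 and among the 6 genes without overlap. Of the other 8, 5 fell. Calls over all 13116 genes tested shift with the scaling. With all libraries set to equal sums of values 798 were higher and 8343 lower, and with quantile normalization 2694 and 2787. The counts of lists under these scalings, given below, are to be read beside these.

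**Figure D1:**
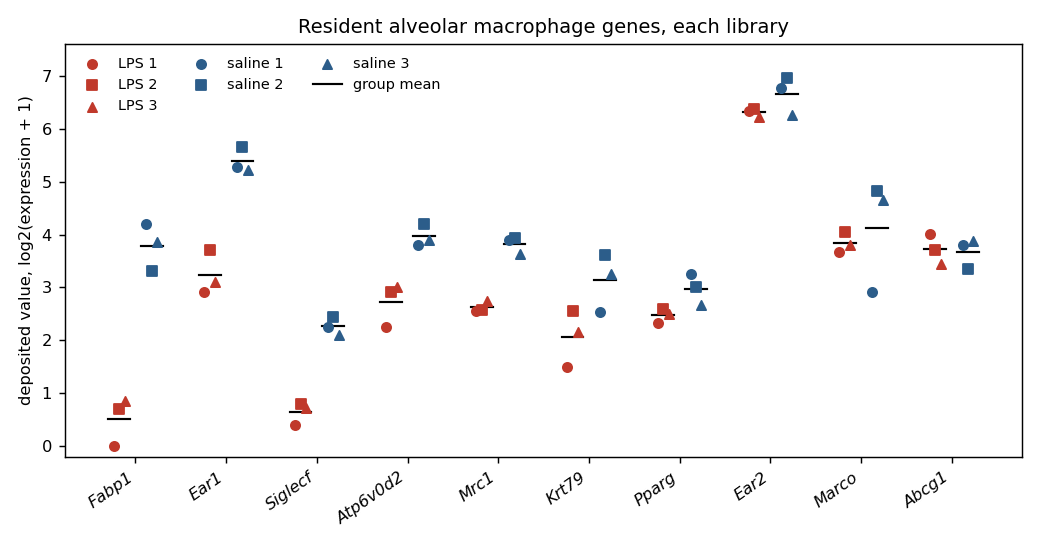
Deposited values, log2(expression + 1), of the 10 genes in each library, with LPS in red left of saline in blue, marker shapes for library numbers and black bars for group means. Fabp1, Ear1 and Siglecf have LPS points well below the saline points, whereas the points of Ear2, Marco and Abcg1 overlap between the groups.

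**Figure D2:**
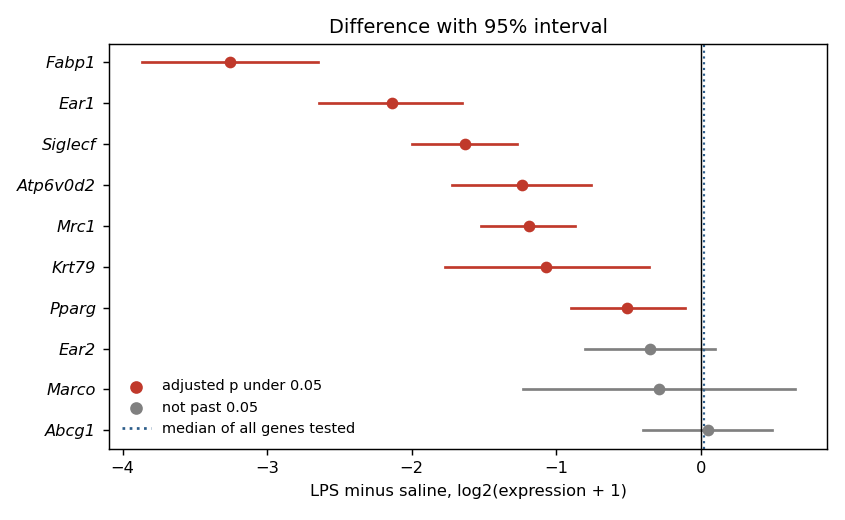
Difference LPS minus saline for each gene with its 95% interval from limma, red where adjusted p was under 0.05 and grey where it was not. The intervals run from -3.87 to -2.65 for Fabp1 to -0.40 to 0.49 for Abcg1, and the dotted line marks the median of all genes tested at 0.02.

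Among the surface receptors, Siglecf encodes Siglec-F, a lectin that binds sialic acid and is the usual surface marker of mouse alveolar macrophages and of eosinophils (chromosome 7, 43351341 to 43359531, plus strand, mm10). It was at 0.41, 0.79 and 0.72 in LPS, against 2.25, 2.45 and 2.11 in saline. All LPS values were under all saline values, with a narrow spread in each group (0.64 ± 0.20 in LPS and 2.27 ± 0.17 in saline, SD, n = 3 each), and the difference was -1.63 (SE 0.16; limma adjusted p = 0.000155). Eosinophils share Siglec-F and the Ear ribonucleases. Of 7 eosinophil markers, Epx was at 0 in LPS and at most 0.03 in saline, and all 7 before the log summed to 2.69, 1.55 and 2.08 in LPS, against 4.33, 6.45 and 6.24 in saline. Of these 7 only Alox15 was tested, and it fell by 0.75, a call that ended with quantile normalization (-0.47; adjusted p = 0.191), while Prg2 was at 0.24 to 0.81 in LPS and 0.49 to 1.92 in saline. The sum of these markers was thus lower in the same libraries as Siglecf, though it was made of low values. Single markers such as Prg2 and Ear6 overlapped between the groups. Il5ra, too low to be tested, did not overlap, at 0.16, 0.15 and 0.06 in LPS and 0.82, 0.63 and 0.74 in saline. The part of eosinophils in the Siglecf difference was not tested.

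Mrc1, the mannose receptor CD206 (chromosome 2, 14229392 to 14332057, plus strand), takes up glycoproteins and microbial sugars and is carried by alveolar macrophages, other tissue macrophages and lymphatic endothelium. Its values were 2.56, 2.57 and 2.75 in LPS and 3.90, 3.93 and 3.63 in saline. The groups did not overlap, and Mrc1 fell by 1.19 (SE 0.14; limma adjusted p = 0.000334). All 4 genes of the mannose receptor family fell, with Mrc2, the collagen receptor of fibroblasts, at -2.15, the phospholipase A2 receptor gene Pla2r1 at -1.20 and the dendritic cell receptor Ly75 at -0.85, although the call for Ly75 ended with quantile normalization (-0.50; adjusted p = 0.0773). Of 4 lymphatic endothelial markers tested, Flt4 (-1.06) and Ccl21a (-1.68) fell, Lyve1 rose (1.70) and Mmrn1 did not pass (-0.25). Before the log the 6 listed markers summed to 293, 162 and 279 in the LPS libraries, against 126, 155 and 124 in saline. Lyve1 alone sets the direction of that sum, since the other 5 summed to 19.6, 27.6 and 28 in LPS and 62.6, 82.3 and 69.2 in saline. The part of these cells in the Mrc1 difference was not tested.

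Marco, a class A scavenger receptor for unopsonised particles and bacteria (chromosome 1, 120474538 to 120505024, minus strand), did not pass the test. It was at 3.67, 4.04 and 3.81 in LPS, against 2.92, 4.82 and 4.65 in saline. Saline 1 was the lowest of all 6 libraries and the other saline libraries were the highest, so that the LPS values lay inside the saline range. The difference was -0.29 (SE 0.42; 95% interval -1.23 to 0.65; limma adjusted p = 0.584). This value rests on single saline libraries: without saline 1 it was -0.90 (adjusted p = 0.00435), and without saline 2 it was 0.05 (adjusted p = 0.932) and without saline 3 it was -0.03. Its relative Msr1, the scavenger receptor SR-A, had 5.88, 5.53 and 5.48 in LPS and 1.43, 3.23 and 2.11 in saline and rose by 3.37 (SE 0.37; limma adjusted p = 0.000226). Of 12 scavenger receptor genes tested, 3 rose (Msr1, Olr1 and Cd68) and 7 fell, among them Colec12 (-1.95), the fatty acid receptor Cd36 (-1.52) and the ferritin receptor Scara5 (-1.37), with a list median of -0.45 (1 higher and 9 lower with equal sums of values, 2 and 7 with quantile normalization). The number higher was 1 without LPS 1, LPS 2, saline 1 or saline 3, and the number lower was 4 without LPS 2, saline 1 or saline 3.

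The nuclear receptor and its lipid genes moved unequally. Pparg (chromosome 6, 115360951 to 115490399, plus strand) encodes PPAR-gamma, which with its partner RXR activates genes of lipid uptake, storage and export, in alveolar macrophages and in fat. It was at 2.32, 2.60 and 2.50 in LPS and 3.26, 3.01 and 2.67 in saline. The LPS values were all lower, though LPS 2 and saline 3 lay close together, and the difference was -0.51 (SE 0.18; limma adjusted p = 0.0373). The call ended in 10 of 18 alternatives, among them each of 5 single libraries left out (without LPS 1, LPS 2, LPS 3, saline 1 or saline 2, with differences of -0.57 to -0.37 and adjusted p of 0.0575 to 0.136) and quantile normalization. Adipocytes also express Pparg, and their markers were lower in the same libraries: 6 of 6 tested fell, of which Adipoq, Plin1 and Adrb3 passed the filter only through saline and so had to be lower, and the sum of 7 markers before the log was 2.08, 1.34 and 12.3 in LPS and 110, 100 and 53.4 in saline. In LPS 1 and LPS 2, Lep and Cfd were listed at 0. The part of fat in the Pparg difference was not tested. Ppard did not pass (-0.30), and Ppara, at 0.45 to 0.59 in LPS and 0.89 to 1.44 in saline, was too low to be tested.

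Fabp1, liver-type fatty acid-binding protein (chromosome 6, 71199827 to 71205023, plus strand), carries fatty acids inside hepatocytes, enterocytes and mouse alveolar macrophages, and in liver is a target of PPAR receptors. It had the largest difference of the 10, with 0.00, 0.71 and 0.86 in LPS and 4.19, 3.32 and 3.86 in saline. LPS 1 is listed at 0, and no LPS value came near the saline range. The difference was -3.26 (SE 0.27; limma adjusted p = 8.37e-05), a 9.59-fold lower level on the log2(expression + 1) scale. Hepatocyte and enterocyte markers were low in both groups. Before the log, 6 of them summed to 0.236 to 2.33 in LPS and 2.30 to 8.16 in saline. Alb was at 0.08 to 0.86 in LPS and 0.30 to 2.01 in saline. Only Apoa2 of this list was tested, and it was called lower (-1.27, limma adjusted p = 0.00714). Apoa2 passed the filter only through saline and so had to be lower. Fabp2, the enterocyte form, was listed at 0 in LPS and reached 0.13 in 1 saline library. The part of hepatocytes and enterocytes in the Fabp1 difference was not tested. Other binding proteins differed in direction: Fabp5 rose by 1.52, Fabp3, the heart muscle form, fell by 2.41, and Fabp4, shared by macrophages, fat and lung capillaries, differed by -0.40 (limma adjusted p = 0.388).

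The promoter of Fabp1 is shown because PPAR-gamma with RXR binds direct repeats of the half-site AGGTCA and Fabp1 is a PPAR target in liver. Any link between the differences of Pparg and Fabp1 was not tested. The window is from RefSeq (GRCm38.p6), chr6:71199629-71199928, plus strand, 250 bases before to 50 after the gene's start, with each AGGTCA on either strand in capitals. That start, at 71199879, lies 52 bases inside the GENCODE start given above.
Fabp1: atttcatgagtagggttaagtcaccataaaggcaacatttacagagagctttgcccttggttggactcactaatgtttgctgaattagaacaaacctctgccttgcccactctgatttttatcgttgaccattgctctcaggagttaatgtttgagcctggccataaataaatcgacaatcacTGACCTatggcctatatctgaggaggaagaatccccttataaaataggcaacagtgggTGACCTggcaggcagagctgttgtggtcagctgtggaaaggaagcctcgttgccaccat
The Fabp1 half-sites begin at -67 and -9 relative to the start, and both read on the minus strand. Windows matched 8 of the 10 genes, Abcg1 and Atp6v0d2 being the exceptions, with 3 start sites for Pparg. AGGTCA on either strand was in the windows of Fabp1 and Pparg, 2 of 8 genes, and in 18.1% of the 27025 genes with a window. No window of the 8 held the full direct repeats AGGTCANAGGTCA or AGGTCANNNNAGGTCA, which were in 0.0481% and 0.0148% of genes and contain the half-site, nor the PU.1 site GAGGAAGT (3.69% of genes) or the E-box CACGTG (8.09%), each searched on both strands. These searches took exact letters only, and repeats with a changed base were not searched for. In the printed Fabp1 window the half-site at -67 is followed, a base later, by a near match to the half-site. The absence of exact repeats therefore does not mean that the Fabp1 window lacks an inexact direct repeat. A match is a description of letters and not a site of binding.

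Abcg1, a transporter that exports cholesterol and oxysterols and whose loss in mice leaves alveolar macrophages filled with lipid (chromosome 17, 31057675 to 31117988, plus strand), did not differ past the test. It had 4.01, 3.71 and 3.44 in LPS and 3.81, 3.34 and 3.88 in saline. The groups overlapped fully, and the difference was 0.05 (SE 0.20; 95% interval -0.40 to 0.49; limma adjusted p = 0.858). Its sign followed the setting: -0.10 without LPS 1, -0.12 without saline 2 and -0.70 with equal sums of values. Abcg2 (0.16) and Abcg3 (0.07) did not pass either, and Abca1, the other main cholesterol exporter, differed by -0.43 (limma adjusted p = 0.264).

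Among 21 genes of lipid uptake and cholesterol export, 5 rose, 8 fell and 8 did not pass, with a median of -0.40 (3 higher and 15 lower with equal sums of values, 3 and 10 with quantile normalization). The number higher was 3 without LPS 1, LPS 2 or saline 3, and the number lower was 5 without LPS 2 or saline 1. Angptl4, an inhibitor of lipoprotein lipase and a PPAR target, had 6.64, 6.42 and 6.88 in LPS and 3.38, 4.09 and 4.36 in saline and rose by 2.70 (SE 0.25). Lipoprotein lipase, encoded by Lpl, rose by 2.17 (SE 0.20), and the lipid droplet coat gene Plin2 by 1.67 (SE 0.21). Cd36, which takes up fatty acids and oxidised lipoprotein and is also abundant on capillary endothelium, fell by 1.52 (SE 0.25). All 4 passed limma at an adjusted p of at most 0.00134 (Cd36). Among the PPAR targets named here, Fabp1 and Cd36 were lower and Angptl4, Lpl and Plin2 higher in LPS. These were picked among called genes, and Fabp4 (-0.40), Pdk4 (0.76) and Cpt1a (-0.40) of the lipid list did not pass. The part of PPAR receptors in these differences was not tested.

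Ear1 and Ear2 encode eosinophil-associated ribonucleases, small secreted enzymes named for eosinophil granules but also made by mouse alveolar macrophages. Both genes lie on chromosome 14, Ear1 at 43818765 to 43875517 (minus strand) and Ear2 at 44102654 to 44103534 (plus strand). Their promoter windows are shown because the pair is nearly identical in sequence while the RNA values differed; both come from RefSeq (GRCm38.p6), at chr14:43819590-43819889, minus strand, for Ear1 and chr14:44102404-44102703, plus strand, for Ear2, and capitals mark bases that differ from the other gene in the alignment. The Ear1 window is built around a start at 43819639, that of a shorter annotated transcript, and not the outermost start of the gene at 43875517.
Ear1: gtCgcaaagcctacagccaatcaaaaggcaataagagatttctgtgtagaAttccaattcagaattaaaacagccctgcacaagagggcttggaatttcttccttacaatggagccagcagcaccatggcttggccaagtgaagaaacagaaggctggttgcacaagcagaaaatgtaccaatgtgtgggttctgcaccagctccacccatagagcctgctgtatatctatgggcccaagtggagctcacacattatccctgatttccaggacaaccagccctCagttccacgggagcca
Ear2: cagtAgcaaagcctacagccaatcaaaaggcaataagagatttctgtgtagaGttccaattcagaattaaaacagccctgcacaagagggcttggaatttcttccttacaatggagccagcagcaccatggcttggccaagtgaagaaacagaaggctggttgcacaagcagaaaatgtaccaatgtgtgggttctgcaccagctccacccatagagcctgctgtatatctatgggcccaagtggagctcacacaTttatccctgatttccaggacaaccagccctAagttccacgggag
Over 298 aligned columns the windows had 294 identical bases (98.7%), 3 mismatches and 1 gap.

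Ear1 RNA was at 2.91, 3.71 and 3.11 in LPS, against 5.28, 5.66 and 5.22 in saline. Every LPS value was far below the lowest saline value, and Ear1 fell by 2.14 (SE 0.22; limma adjusted p = 0.000168), a 4.42-fold lower level. Ear2 had 6.33, 6.37 and 6.23 in LPS and 6.76, 6.96 and 6.26 in saline. Its groups touched, since saline 3 lay among the LPS values, and the difference was -0.35 (SE 0.20; 95% interval -0.80 to 0.10; limma adjusted p = 0.167). Without saline 3 the Ear2 difference was -0.55 (adjusted p = 0.0431), and it passed with quantile normalization (-0.90) and with equal sums of values (-1.15). Within each library, Ear1 minus Ear2 was -3.42, -2.66 and -3.12 in LPS and -1.48, -1.30 and -1.04 in saline. The groups did not overlap in that value, and the change of -1.79 between their means was not tested.

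The transcripts of Ear1 (713 bases) and Ear2 (719 bases) in GENCODE M21 were 96.4% identical, and 23.8% of the 50-base stretches of Ear1 occurred unchanged in Ear2. Reads from such stretches can be assigned to either gene, and the sources used here do not state how the counting treated them, so the split between the pair is uncertain. Ear3, Ear10 and Ear14 were listed at 0 in all 6 libraries, and Ear10 shares 92.9% of its aligned transcript with Ear1. Summed before the log, an alternative chosen after the data were seen, Ear1 and Ear2 together gave 6.44, 6.57 and 6.37 in LPS and 7.19, 7.45 and 6.82 in saline and fell by 0.69 (limma adjusted p = 0.0147). Ear1 made up 7.57%, 12.9% and 9.36% of that sum in LPS and 26%, 28.6% and 32.4% in saline. Among other ribonucleases of the family tested, Rnase4 fell by 1.01, Rnase6 by 0.66 and the angiogenin gene Ang by 0.62.

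Atp6v0d2 encodes a d subunit of the proton pump (V-ATPase) that acidifies lysosomes, an isoform known from osteoclasts and macrophages, while Atp6v0d1 is the broadly expressed form (Atp6v0d2: chromosome 4, 19876841 to 19922605, minus strand). Its values were 2.25, 2.91 and 3.01 in LPS and 3.81, 4.19 and 3.90 in saline. The groups did not overlap, LPS 1 was the lowest, and Atp6v0d2 fell by 1.24 (SE 0.21; limma adjusted p = 0.00163). Atp6v0d1 was at 6.20, 6.03 and 5.97 in LPS, against 5.61, 5.77 and 5.80 in saline, a difference of 0.34 that did not pass (limma adjusted p = 0.0806). The member minus its isoform was -3.96, -3.12 and -2.96 in LPS and -1.80, -1.58 and -1.90 in saline. Among 22 other V-ATPase genes tested, 12 rose and 3 fell, with a median of 0.50, and of those that fell Atp6v1b1 and Atp6v0a4 passed the filter only through saline and so had to be lower; the cytosolic subunit gene Atp6v1g1 (1.32), Tcirg1 (1.22), the membrane ring gene Atp6v0c (1.08) and Atp6v1b1 (-1.34), a form of kidney and other acid-secreting cells, had the largest differences. With equal sums of values the split turned to 1 higher and 11 lower, where 798 of all genes tested were higher and 8343 lower. With quantile normalization it was 3 higher and 2 lower, against 2694 and 2787 of all genes tested. The split of this list thus shifts with the scaling, as that of all genes does, whereas Atp6v0d2 fell in all 3.

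Krt79, a keratin of hair follicle and sebaceous cells that is also a transcript of mouse alveolar macrophages (chromosome 15, 101929332 to 101940324, minus strand), was at 1.5, 2.55 and 2.16 in LPS and 2.53, 3.62 and 3.26 in saline. LPS 2 reached the level of saline 1, so the groups met at their edges. The difference for Krt79 was -1.07 (SE 0.32), called lower by limma with an adjusted p of 0.0197. That call was lost without LPS 1 (-0.78; adjusted p = 0.0544), without saline 2 (-0.82; adjusted p = 0.0783), without saline 3 (-1.0; adjusted p = 0.0604), with quantile normalization (-0.87; adjusted p = 0.0698) and with no filter on low values (adjusted p = 0.0838). Keratinocyte markers were near the bottom of the scale. Before the log, 6 of them summed to 2.13 to 2.77 in LPS and 1.94 to 3.23 in saline. Without Krt10 the other 5 summed to 1.23, 0.322 and 0.804 in LPS and 0.974, 1.69 and 0.668 in saline. Krt5, too low to be tested, was lower without overlap, at 0.07, 0 and 0.14 in LPS and 0.78, 1.2 and 0.5 in saline. Lor, also too low, went the other way, at 0.51, 0.23 and 0.4 in LPS and 0.1, 0.18 and 0.09 in saline. Sprr1b was listed at 0 in every library that has a value for it. The part of keratinocytes in the Krt79 difference was not tested.

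**Figure D3:**
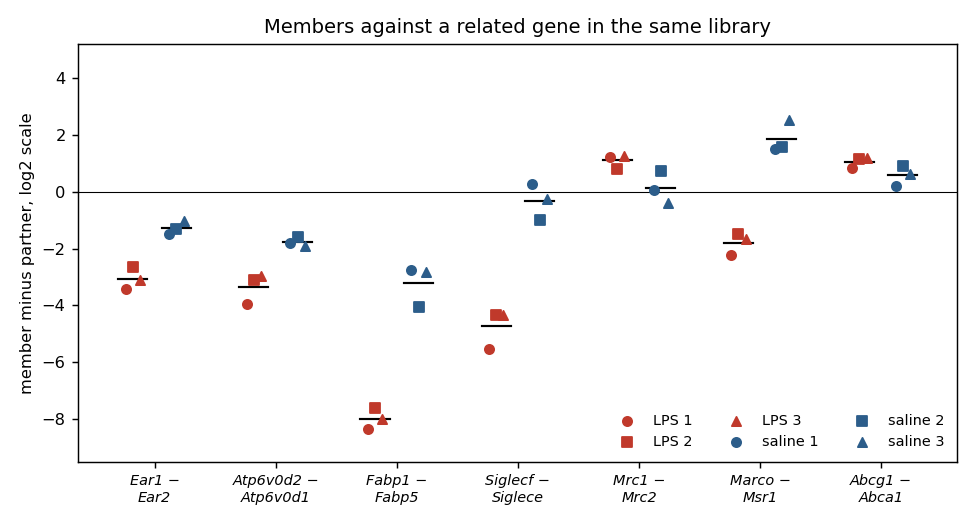
Value of each gene minus that of a related gene in the same library, on the log2(expression + 1) scale, with LPS in red left of saline in blue and black bars for group means. Ear1 minus Ear2 sits between -3.42 and -2.66 in LPS and between -1.48 and -1.04 in saline, and Marco minus Msr1 between -2.21 and -1.49 in LPS and between 1.49 and 2.54 in saline.

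Whether the values are corrected for gene length is not known, so only the change of each pair between groups is read. These pairs were chosen after the values were seen and are described without a test. Siglecf minus Siglece, a Siglec of neutrophils and monocytes, was -5.52, -4.33 and -4.34 in LPS and 0.28, -1.0 and -0.26 in saline. Siglece itself rose by 2.78 (SE 0.36), Cd33 rose by 1.34, and the B cell genes Cd22 (-2.50) and Siglecg (-1.55) fell, so that 2 of 7 Siglec genes tested rose and 3 fell. Fabp1 minus Fabp5 was -8.36, -7.61 and -8.01 in LPS and -2.75, -4.06 and -2.81 in saline, and Marco minus Msr1 was -2.21, -1.49 and -1.67 in LPS and 1.49, 1.59 and 2.54 in saline. In each of these pairs the groups were apart. Mrc1 minus Mrc2 went the other way, at 1.24, 0.79 and 1.27 in LPS and 0.07, 0.73 and -0.39 in saline, since Mrc2 fell by more.

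Among the LPS libraries, LPS 1 had the lowest value for 8 of the 10 genes (Ear1, Siglecf, Marco, Pparg, Mrc1, Fabp1, Krt79 and Atp6v0d2), whereas it was the lowest of the group for 35.9% of 10295 genes tested with a value in all libraries. LPS 1 also had the highest sum of 8 neutrophil markers, 25500 before the log against 9920 in LPS 2 and 18200 in LPS 3, with 646 to 1980 in saline. The part of neutrophil RNA in the members' differences was not tested. Leaving LPS 1 out gave 5 of 10 genes called lower and a median difference of -0.89. Over all genes tested, 2550 were called lower without LPS 1, against 3188 with it.

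Other genes known from alveolar macrophages went in both directions. Of 23 tested, 9 rose, 2 fell and 12 did not pass, with a median of 0.04. With equal sums of values 2 were higher and 10 lower, where all genes tested gave 798 and 8343. With quantile normalization 5 were higher and 4 lower, where all genes tested gave 2694 and 2787. Cidec, a lipid droplet gene shared with fat, fell by 2.41, and Cd36 fell by 1.52. Lpl rose by 2.17 and Fabp5 by 1.52, both also expressed outside macrophages. Chil3, the chitinase-like protein Ym1, rose by 0.55 (adjusted p = 0.0302), a sign that turned with quantile normalization (-0.16) and equal sums (-0.25). Itgax (CD11c; -0.25), Plet1 (-0.12), Car4 (-0.13) and F7 (-0.02) did not pass.

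The signals that maintain these cells were higher in part. Csf2 was at 7.24, 5.45 and 5.55 in LPS, against 1.22, 1.60 and 1.31 in saline, and rose by 4.70 (SE 0.41; limma adjusted p = 9.14e-05). Csf2rb, the signalling chain of its receptor, rose by 1.89 (SE 0.28), and the ligand-binding chain Csf2ra by 1.18, which no longer passed with equal sums of values (0.42; adjusted p = 0.134). The macrophage growth factor Csf1 rose by 1.97 and the transcription factor gene Cebpb by 2.83. Tgfb1 did not pass (0.20), and Tgfb3 (-1.36) and the receptor gene Tgfbr2 (-0.70) fell, on 2 LPS values each. Of the repressor genes Bhlhe40 and Bhlhe41, which maintain alveolar macrophage identity in mice, Bhlhe40 rose by 1.72, while Bhlhe41 had 1.5, 1.96 and 1.61 in LPS, against 2.42, 1.83 and 2.11 in saline, and did not pass (-0.43; limma adjusted p = 0.0850). In all, 13 of 22 genes of this list rose and 3 fell, with a median of 0.83 (7 and 5 with equal sums of values). The number lower was 1 without LPS 2 and with no filter on low values. It was 0 where genes lacking a value in LPS 3 were left out, as they also are in the fit with the replicate block.

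**Figure D4:**
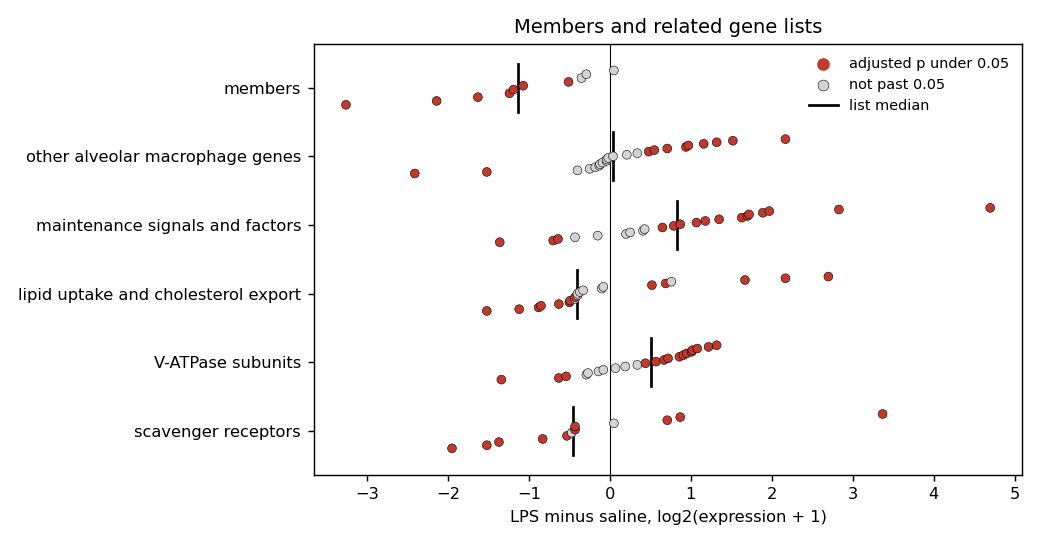
Difference LPS minus saline for each gene tested, by list, red where adjusted p was under 0.05 and grey where it was not, with black bars for list medians. The median is -1.13 for the 10 genes, 0.04 for other alveolar macrophage genes, 0.83 for maintenance signals, -0.40 for lipid genes, 0.50 for V-ATPase genes and -0.45 for scavenger receptors.

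General macrophage markers give the setting of these values. Of 9 tested, 6 rose, 1 fell and 2 did not pass, with a median of 0.90. Fcer1g, an Fc receptor chain of myeloid cells, rose by 2.87, Tyrobp, a myeloid adaptor, by 1.99 on 2 LPS values, and the lysosomal marker Cd68 by 0.87, a call that ended with quantile normalization (0.44; adjusted p = 0.254) and equal sums of values (0.09; adjusted p = 0.781). The list gave 5 higher and 1 lower with quantile normalization and 4 and 2 with equal sums. Lyz2, the lysozyme of macrophages and alveolar type 2 cells, fell by 1.0, with 10.81, 10.96 and 11.11 in LPS and 11.87, 12.27 and 11.74 in saline. The 8 markers with a value in all libraries summed to 3040 to 3120 before the log in LPS and to between 3680 and 5300 in saline. Lyz2 sets that direction, since the other 7 summed to 1320, 1050 and 837 in LPS and 191, 355 and 253 in saline. Monocyte markers rose in 6 of 8 tested (sums of 502 to 1380 in LPS, against 194 to 345 in saline), and neutrophil markers in 8 of 8, with S100a8 at 12.48 to 13.73 in LPS and 8.40 to 10.07 in saline. Among markers of alveolar type 2 cells, 2 of 5 fell and 0 rose: the surfactant protein gene Sftpb fell by 1.60 (limma adjusted p = 0.000966) and the phosphate transporter gene Slc34a2 by 1.12 on 2 LPS values (limma adjusted p = 0.00353). Sftpc, at 13.60, 13.60 and 13.46 in LPS and 14.00, 13.98 and 13.85 in saline, did not pass (-0.39). The 4 markers with a value in all libraries summed to between 12800 and 14000 in LPS and between 17800 and 19100 in saline, and all 5 were called lower with either other scaling. The part of these cells in the members' differences was not tested.

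**Figure D5:**
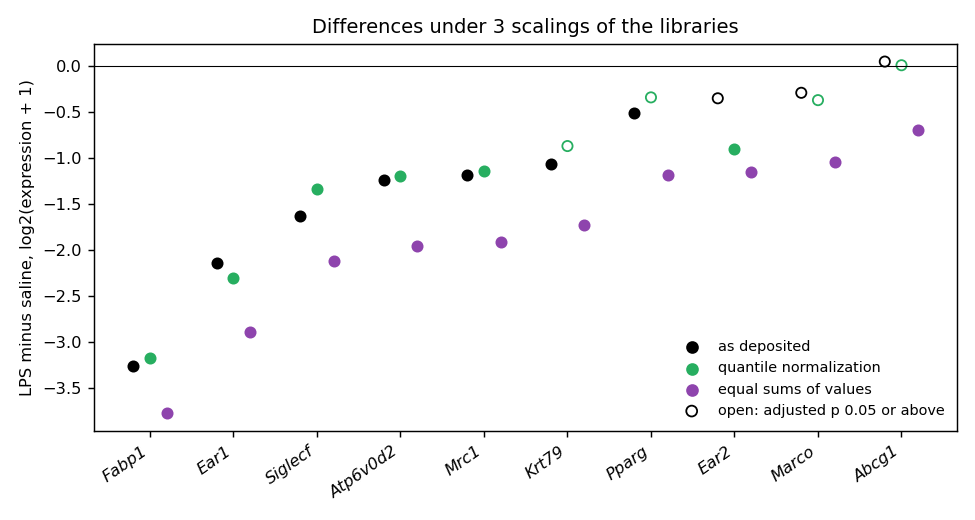
Difference LPS minus saline for each gene with the scaling as deposited (black), with quantile normalization (green) and after setting all libraries to 1 common sum (purple); filled points have an adjusted p under 0.05. Fabp1, Ear1, Siglecf, Atp6v0d2 and Mrc1 are filled and below 0 under all 3.

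The scaling between libraries bears on all of these values. With equal sums of values all 10 genes were called lower, as were 8343 of the 13116 genes tested. The median of the 10 genes was then -1.82, but the median of all genes tested moved to -0.68. Relative to it the members' median was -1.14, against -1.15 as deposited. With quantile normalization 6 fell, as did 2787 of the 13116 genes tested. Pparg (-0.34) and Krt79 (-0.87) no longer passed there, and Ear2 (-0.90) did. Fabp1, Ear1, Siglecf, Mrc1 and Atp6v0d2 were called lower under every alternative in which they were tested, over 17 or 18 alternatives for each. Fabp1 and Siglecf passed the main filter only through saline, so they had to be lower wherever that filter was kept.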

How the data were processed

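Lung RNA of 3 LPS and 3 saline libraries was used, grouped by sample title. Trizol RNA went into a strand-specific (NEBNext Ultra II Directional) kit, per the labels' protocols. TopHat and mm10 are named in the submitters' processing notes; the counter, the annotation, the scaling and any length correction are not stated in the sources used here. The authors deposited log2 values, a unit read from the values (not whole, at least 0, with exact zeros). No counts were analysed, so the depth is unknown and intervals from counting are not given. Values of different genes are combined only within a library, as differences or shares compared between groups.

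limma 3.58.1 in R 4.3.3, with a variance trend and no replicate block, was fitted to genes with a value of at least 1 before the log in at least 3 libraries (13116 of 23183), with Benjamini-Hochberg adjustment at 0.05. The members, lists and pairs were chosen with earlier results of these data known. All members are named. The plan was to name up to 4 called genes with the largest differences of each related list, and the 3 highest by mean of each marker list. Not all of these are named. Others named were chosen after their values were seen. Sequences were compared with Biopython 1.88, coordinates are from GENCODE M21, and promoters are from RefSeq. Alternatives covered filters, scalings, pseudocounts (0.1 and 5), variance trend, replicate block, threshold and libraries left out.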

Additional observations from a re-analysis of the deposited data

How the results depend on the processing

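The number of members called lower was 5 to 10 over all alternatives, against 7, and 0 were called higher in any. With each library left out in turn, 5 to 7 were called lower, with a median of -1.24 (without LPS 2 or saline 1) to -0.89 (without LPS 1). The median was -1.82 with equal sums of values, -1.30 with a pseudocount of 0.1 and -0.65 with a pseudocount of 5, the last 2 following from how the log compresses low values. Marco turned to 0.05 without saline 2 and 0.07 without saline 2 and LPS 3 together, and Abcg1 to -0.10 without LPS 1, -0.12 without saline 2 and -0.70 with equal sums; the cause was not tested. With single libraries left out, Marco ranged from -0.90 (without saline 1) to 0.05 and Abcg1 from -0.12 to 0.19 (without LPS 3). Over all genes, 6565 were called (3377 higher, 3188 lower). At a threshold of 0.01 these were 4037 (2033 higher, 2004 lower). With a mean value of at least 5, fewer genes were tested, and 2988 were higher and 1752 lower, so the lower count dropped more. With equal sums 798 were higher and 8343 lower, and with quantile normalization 2694 and 2787. Single libraries left out gave 4901 to 7096 calls over all genes, with 2440 to 3436 called lower. The related lists together had 60 genes called, and 40 to 63 under the alternatives.

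No pairing by library number was seen. Deviations from the group means correlated at -0.23, -0.08 and -0.25 for numbers 1, 2 and 3 across 10295 genes. No library correlated best with its own number. The 3 deviations of a group sum to 0 for each gene, so these values are linked and cannot exclude a paired design. The fit with the replicate block took only genes with a value in all 6 libraries. It called 4609 genes, against 5314 for such genes without the block. It called 6 members lower, and 2202 of all genes it tested, with Pparg the member lost (-0.51, limma adjusted p = 0.0716). The limma adjusted p of Krt79 was 0.00302 with the block, against 0.0197 in the main fit. The number of libraries and the unknown depth limit the precision of low values such as Fabp1 and Siglecf in LPS.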

Other observations

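Markers of the other resident phagocytes of the lung did not move as one group. Of 10 interstitial macrophage markers tested, 3 rose, 1 fell and 6 did not pass. Lyve1, a hyaluronan receptor shared with lymphatic endothelium, had 8.10, 7.08 and 7.98 in LPS and 6.02, 6.21 and 5.81 in saline and rose by 1.70 (SE 0.27; limma adjusted p = 0.00106), and the platelet and macrophage chemokine Pf4 rose by 1.61. The folate receptor gene Folr2 fell by 0.91. The complement gene C1qb did not pass (0.32; limma adjusted p = 0.450), and its sign turned with quantile normalization (-0.15) and equal sums of values (-0.47).

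Of 6 dendritic cell markers tested, 4 fell and 0 rose, with a median of -0.91. Clec9a, the dead-cell receptor of cross-presenting dendritic cells, was at 1.43, 2.61 and 2.32 in LPS, against 3.59, 3.19 and 3.08 in saline, and fell by 1.17 (SE 0.28; limma adjusted p = 0.00787). Itgae, an integrin of the same cells and of T cells, fell by 1.01 but passed the filter only through its saline values, and Zbtb46, a transcription factor gene of dendritic cells and endothelium, by 0.92 on 2 LPS values. Ccr7, the receptor for migration to lymph nodes, did not pass (-0.02).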
